A study of Mus musculus with 12 samples.

Results

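Sites assigned to 9 histone genes were examined in RNA immunoprecipitation libraries of mouse inner ear organoids. The genes were taken by name from the deposited lists of sites: the linker histone genes Hist1h1b, Hist1h1c, Hist1h1d, Hist1h1e and H1f0, the core H2A genes Hist1h2ab and Hist2h2aa1, the core H4 gene Hist1h4d, and the H3.3 gene H3f3a. They are 9 of the 1000 gene names in the lists and hold 23 of the 4046 listed sites. In the study, cochlear epithelium of mice at postnatal day 1 to 2 was dissociated and grown as organoids, epithelial clusters in Matrigel. All cultures were expanded with EGF, bFGF, IGF and CHIR99021, a GSK3 inhibitor that activates Wnt signalling. They were then differentiated with CHIR99021 and LY411575, a gamma-secretase inhibitor that blocks Notch signalling, followed by a low dose of EGF and bFGF.

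There were 4 groups of 2 libraries. The depleted IP libraries came from organoids given an Rbm25 knockdown lentivirus (genotype Rbm-KO) and an antibody against RBM25. The depleted IgG libraries came from the same kind of organoids and an IgG antibody. The control IP and control IgG libraries came from organoids with the genotype label WT, given a control lentivirus, with the same antibodies. Nothing in the labels says that the replicates came from separate animals, and no source used here gives the construct or its promoter, and the extent of knockdown was not analysed here. Rbm25 itself had 2 sites in depleted IP 1 and 0 in each of the other 7 lists. The 4 further lists labelled Input held no independent rows. Each was identical to the IP rows of the same number that share no base with the IgG list of that number, with 464 and 158 rows for depleted 1 and 2 and 396 and 399 rows for control 1 and 2. They give no measure of RNA abundance and were not used further.

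RBM25 is a nuclear RNA-binding protein of the SR-related kind that acts in the choice of splice sites. Core histones form the nucleosome, and linker histones of the H1 family bind the DNA that enters and leaves it. Replication-dependent histone genes are transcribed mainly in S phase, have no introns, and end their mRNAs in a stem-loop in place of a poly(A) tail. H1f0, the linker histone of differentiated and non-dividing cells, and H3f3a, which encodes the replacement histone H3.3, are expressed outside S phase and give polyadenylated mRNAs. H3f3a also has introns.

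The 4 replication-dependent linker genes lie in the Hist1 cluster on chromosome 13 and share an upstream architecture, shown here to set them beside H1f0, the linker gene of the replacement kind. The 130 bases before each annotated start are from RefSeq on GRCm38.p6, read 5′ to 3′ in the gene's direction. Capitals mark 4 motifs on either strand: AAACACA, the core of the H1 box; CCAAT, a common promoter element; and the TATA-like elements TATAAA as well as TATATA, which can overlap each other.
Hist1h1b, chr13:21780626-21780755 (- strand): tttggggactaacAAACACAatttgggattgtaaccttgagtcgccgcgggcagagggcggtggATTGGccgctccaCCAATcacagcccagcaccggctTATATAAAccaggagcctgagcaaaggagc
Hist1h1c, chr13:23738677-23738806 (+ strand): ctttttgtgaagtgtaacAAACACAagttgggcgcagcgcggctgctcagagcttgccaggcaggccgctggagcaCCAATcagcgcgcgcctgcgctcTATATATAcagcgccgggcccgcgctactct
Hist1h1d, chr13:23554902-23555031 (+ strand): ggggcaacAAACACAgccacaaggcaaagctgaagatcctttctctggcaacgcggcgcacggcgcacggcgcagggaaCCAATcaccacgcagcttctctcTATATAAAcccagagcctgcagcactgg
Hist1h1e, chr13:23622559-23622688 (- strand): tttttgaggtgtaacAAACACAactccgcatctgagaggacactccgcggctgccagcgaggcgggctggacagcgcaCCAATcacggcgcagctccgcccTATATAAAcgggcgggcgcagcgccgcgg
H1f0, chr15:79028082-79028211 (+ strand): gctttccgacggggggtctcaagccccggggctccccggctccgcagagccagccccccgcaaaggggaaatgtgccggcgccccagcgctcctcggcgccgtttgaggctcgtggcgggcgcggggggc
In the 250 bases before the start, AAACACA stood 112 to 122 bases upstream in these 4 genes, and the nearest CCAAT on the gene's strand stood 51 to 54 bases upstream. A match is a description of the letters, not of a bound factor. TATAAA was found in Hist1h1b, Hist1h1d and Hist1h1e, and TATATA in all 4. H1f0 held 0 matches to any of the 4 motifs. Of 32851 upstream windows of that length, 6.25% held AAACACA, 33.8% CCAAT, 12.4% TATAAA and 5.25% TATATA. Among the other members, Hist1h2ab held all 4 motifs on its own strand, with AAACACA 68 and CCAAT 78 bases upstream. Hist1h4d held TATAAA, and CCAAT on the opposite strand, and Hist2h2aa1 held CCAAT. H3f3a held AAACACA and CCAAT on the opposite strand. The motifs were thus not particular to the linker genes.

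On GRCm38, Hist1h1b (RefSeq symbol H1f5) lies at chr13:21779832-21780625 on the minus strand, Hist1h1c (H1f2) at chr13:23738807-23739531 on the plus strand, Hist1h1d (H1f3) at chr13:23555032-23555807 on the plus strand and Hist1h1e (H1f4) at chr13:23621777-23622558 on the minus strand. Hist1h4d (H4c4) lies at chr13:23581568-23581969 and Hist1h2ab (H2ac4) at chr13:23751088-23751592, both on the plus strand of the same cluster. Hist2h2aa1 (H2ac18) lies at chr3:96245497-96246052 on the plus strand, H1f0 at chr15:79028212-79030504 on the plus strand and H3f3a at chr1:180802560-180813605 on the minus strand.

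The sites themselves could be read from these reference windows, which reach 50 bases past the start, for 2 of the 9 genes. The first 30 bases of the Hist1h1e site and the first 20 bases of the Hist1h4d site on GRCm38.p6 are shown because these sites lie nearest to the start of their genes, with the first ATG in capitals where present.
Hist1h1e, chr13:23622529-23622558 (- strand): cccgagtcctggccagtccctctgcttccg
Hist1h4d, chr13:23581598-23581617 (+ strand): taacATGtctggacgcggga
The sequence of the other sites was not analysed here.

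Each list holds, for each site, the authors' fold enrichment over the background of their peak caller, a score of −10 times log10 of its p, and a false discovery rate in percent. These values describe a site within its own list. A score of 3100 or more was given to 62.2% to 79.4% of the sites of each IP list, so it does not set an IP site apart. In the IgG lists it was given to 5.42% to 9.07%. Read counts were not used here, so depth is unknown, and a gene that is missing from a list was not called there, which does not show that its RNA was absent. In whole organoids, fewer cells that make a histone mRNA and less of that mRNA per cell cannot be told apart. With 2 libraries a group, a two-sided exact permutation test cannot go below p = 0.333, so counts are given beside the same count over all genes or regions, without a test. The lists held 165 to 813 sites each, with the shortest in depleted IP 2 and the longest in depleted IP 1. Of 10 hair cell markers Barhl1 was listed, and of 10 supporting cell markers Otog. Epithelial markers were listed for 3 of 4 genes (Epcam, Krt8 and Krt18), mesenchyme markers for 5 of 8, glial and neuronal markers for 1 of 6 (Sox10), and immune and endothelial markers for 0 of 5. Atoh1, Pou4f3 and Sox2 had no site, and a site is no measure of RNA level.

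Histone genes were listed in 7 of the 8 libraries, and which histone was listed differed between groups. Depleted IP 1 listed Hist1h1c, Hist1h1e, H1f0 and H3f3a, and depleted IP 2 listed 0 of the 9 genes. Depleted IgG 1 listed Hist1h1c, Hist1h1e and H3f3a, and depleted IgG 2 listed Hist1h1c and Hist1h1e. Both control IP libraries listed Hist1h1b, Hist1h1d, Hist1h1e and Hist1h4d. Both control IgG libraries listed Hist1h1e, Hist1h2ab and Hist2h2aa1. No gene had more than 1 site in a list. By pattern, 9.6% of all 1000 genes were listed in 7 or more lists, as Hist1h1e was. In both control IP lists and no other were 16.9%, as Hist1h1b, Hist1h1d and Hist1h4d were, and in both control IgG lists and no other 4.2%, as both H2A genes were. In depleted IP 1 and both depleted IgG lists alone were 7.5%, as Hist1h1c was, and in depleted IP 1 and depleted IgG 1 alone 0.8%, as H3f3a was. Control lists alone held 26.5% of all genes and 5 of the 9 histone genes.

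As shares of the 9 genes, these are 44.4% in depleted IP 1 and 0 of 9 in depleted IP 2, where 54.0% and 11% of all 1000 genes were listed. The depleted IgG libraries listed 33.3% and 22.2% of the 9, beside 37.4% and 37.8% of all genes. Both control IP libraries listed 44.4%, beside 43.0% and 43.2%, and both control IgG libraries 33.3%, beside 32.7% and 31.8%. The histone shares thus lay within 2 percentage points of those of all genes in both control groups, and below them in all 4 depleted libraries. In a set of 9 genes, a single gene moves the share by as much as most of these gaps or more. No difference between the groups is therefore read from them.

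**Figure D1:**
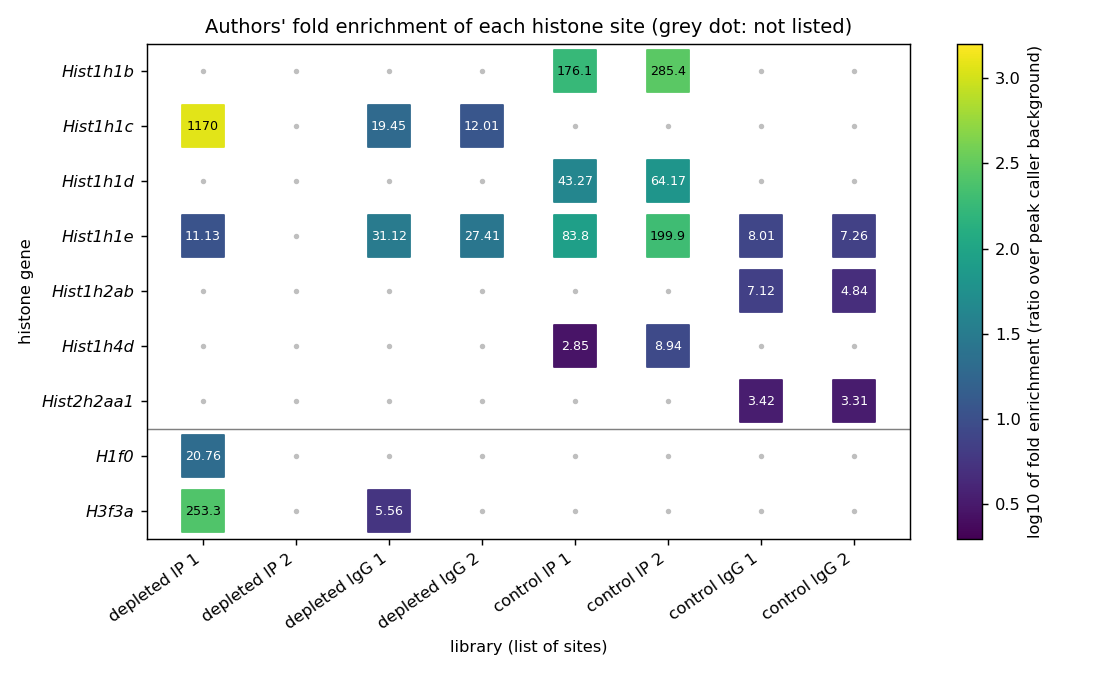
The authors' fold enrichment of each histone site, with the 9 genes as rows (H1f0 and H3f3a under the line) and the 8 libraries as columns; the colour is log10 of the fold, the printed number is the fold and a grey dot marks a gene that is not listed. Hist1h1e fills 7 of the 8 columns, the control IP columns alone hold Hist1h1b, Hist1h1d and Hist1h4d, the control IgG columns alone hold Hist1h2ab and Hist2h2aa1, and the column of depleted IP 2 is empty.

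The comparison of antibodies in control organoids asked which histone RNAs the RBM25 antibody recovered beyond IgG. The linker genes Hist1h1b and Hist1h1d and the H4 gene Hist1h4d were listed with the RBM25 antibody alone, 2 H2A genes with IgG alone, and the linker gene Hist1h1e with both. Sites that shared 1 bp or more were merged into regions. Hist1h1b, Hist1h1d and Hist1h4d each had a region that both control IP lists held and no control IgG list did, which is 3 of the 4 histone regions shared by the IP lists. Over all regions shared by both control IP lists, 63.9% were in neither IgG list (39.8% of all regions of the 4 lists), so the histone share was near that of the lists as a whole.

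Hist1h1b encodes the linker histone H1.5. Its site at chr13:21780052-21780313 had a fold of 176 in control IP 1 and 285 in control IP 2, with a score of 3100 in both and false discovery rates of 16.2% and 17.4%. Both replicates gave the same boundaries, and the gene was not listed in control IgG or in any depleted library. Hist1h1d encodes H1.3, and its folds were 43.3 in control IP 1 and 64.2 in control IP 2. The sites ran from 23555348 to 23555639 in the first list and from 23555351 to 23555636 in the second, on chromosome 13. Both scores were near the common value of 3100, with a false discovery rate of 16.2% in replicate 1 and 100% in replicate 2.

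Hist1h4d, which encodes the core histone H4, stood far lower. Its site at chr13:23581598-23581909 had a fold of 2.85 in control IP 1 and 8.94 in control IP 2. The scores were 53.7 and 621, and the false discovery rate was 100% in both. The replicates thus placed this site identically but weighted it differently, and it was among the weakest of its list in replicate 1, at rank 589 of 594 by fold. Proteins of the H4 genes are identical and their coding sequences similar, so the assignment of this site to Hist1h4d is uncertain, as is that of the H2A sites.

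In the opposite direction, Hist1h2ab and Hist2h2aa1 each had a region that both control IgG lists held and no control IP list did, 2 of the 3 histone regions shared by the IgG lists. Of all regions shared by both control IgG lists, 48.2% were in neither IP list (18.9% of all regions of the 4 lists). Hist1h2ab had a fold of 7.12 in control IgG 1 and 4.84 in control IgG 2, at chr13:23751279-23751548 and chr13:23751287-23751549. Hist2h2aa1 lies in another cluster, on chromosome 3, and had folds of 3.42 and 3.31 at chr3:96245733-96245999 and chr3:96245733-96245998. All 4 H2A sites had a false discovery rate of 100% and scores of 59.0 to 83.8, so no H2A site of these 2 genes was left when such sites were removed.

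Hist1h1e, which encodes H1.4, was listed with both antibodies. In control organoids its fold was 83.8 and 199.9 in the IP libraries, and 8.01 and 7.26 in the IgG libraries. The IP scores were 3100 in both, and the IgG scores 110 and 97.7. Within its list the site ranked above 29.3% and 39.3% of the sites in control IP, and above 7.01% and 6.05% of the sites in control IgG.

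In depleted organoids the 2 IP libraries went apart. Depleted IP 1 listed 4 of the histone genes, 3 of them also in depleted IgG 1, and depleted IP 2 listed none. Because depleted IP 2 held no histone site, 0 histone regions were in both depleted IP lists and in neither depleted IgG list, where 0.266% of all regions were. With depleted IP 2 left out, 1 of 4 histone regions, that of H1f0, was in depleted IP and in neither IgG list, as were 45.1% of all regions. In the other direction 0 histone regions were in both depleted IgG lists and in neither depleted IP list, beside 12.3% of all regions. With depleted IP 1 left out the count was 2 of 3 histone regions, for Hist1h1c and Hist1h1e, beside 67.7% of all regions.

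Within libraries of the same number, H1f0 was in depleted IP 1 and not in depleted IgG 1, 1 of 4 histone regions of that IP list, beside 57.1% of all its regions. In depleted IP 2 this was 0 of 0, beside 95.8%. In control organoids Hist1h1b, Hist1h1d and Hist1h4d made 3 of 4 in both pairs, beside 66.7% in pair 1 and 67.3% in pair 2. In IgG and not in the IP library of the same number were 0 of 3 histone regions in depleted 1, beside 29.9%, and 2 of 2 in depleted 2, beside 98.6%. In control organoids both H2A genes made 2 of 3 in each pair, beside 55.2% and 54.9%. The genes were the same in both control pairs.

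Hist1h1c, which encodes H1.2, had the highest fold of any histone site. It was 1169.9 in depleted IP 1, against 19.45 in depleted IgG 1 and 12.01 in depleted IgG 2. The site spanned chr13:23739195-23739420 in the IP list and ended 2 bp earlier in both IgG lists. Its score was 3100 with a false discovery rate of 1.82% in depleted IP 1, against scores of 231 and 180 with a rate of 100% in depleted IgG. No control library listed this gene.

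Hist1h1e had a fold of 11.1 in depleted IP 1, against 31.1 in depleted IgG 1 and 27.4 in depleted IgG 2. Here the IP site was the weaker by its own list's measures, with a score of 130 and a false discovery rate of 100%, against scores of 558 and 545 with rates of 45.7% and 47.0% in IgG. It ranked above 4.80% of the sites in depleted IP 1, and above 35.5% and 32.7% in depleted IgG 1 and 2. No source used here says which library was the background of each list, so the difference in fold between lists was not tested.

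H1f0, the replacement linker histone, had its single site in depleted IP 1, at chr15:79028938-79029230. The fold was 20.8, the score 981 and the false discovery rate 7.16%. H3f3a was listed at chr1:180811799-180811922 with a fold of 253 in depleted IP 1, against 5.56 in depleted IgG 1, and not in depleted IgG 2. The scores were 3100 and 55.1, and the false discovery rates 1.82% and 100%. Both replacement genes were therefore listed in depleted organoids alone. Among all genes, 35.1% were listed in depleted libraries alone and 20.8% in depleted IP 1 alone, and depleted IP 1 was the longest list.

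The comparison of knockdown with control IP asked which histone regions were listed in control IP and not in depleted IP. Hist1h1b, Hist1h1d and Hist1h4d each had a region that both control IP lists held and no depleted IP list did, 3 of the 4 histone regions shared by the control IP lists. Of all regions shared by both control IP lists, 67.4% were in neither depleted IP list (27.9% of all regions of the 4 lists). The control IP lists shared 570 regions with each other, and the depleted IP lists 6. Absence from depleted IP is therefore not read as a loss after knockdown. This comparison and that of control IP with IgG use the same control IP lists. The count was 3 of 7 histone regions without depleted IP 2, beside 33.9% of all regions. It was 4 of 4 without depleted IP 1, where Hist1h1e joined, beside 72.9%. Conversely, 0 histone regions were in both depleted IP lists and in neither control IP list, beside 0.145% of all regions. No other value was possible, because depleted IP 2 held no histone site. Without depleted IP 2 the count was 3 of 7 histone regions, for Hist1h1c, H1f0 and H3f3a, beside 52.1% of all regions. Across the 4 IP libraries, the linker histone genes with sites were thus Hist1h1c, Hist1h1e and H1f0 in depleted IP 1, none in depleted IP 2, and Hist1h1b, Hist1h1d and Hist1h1e in both control IP libraries.

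The IgG libraries also differed between the genotypes. Hist1h1c had a region in both depleted IgG lists and in neither control IgG list, 1 of the 2 histone regions shared by the depleted IgG lists, where 30.9% of all such shared regions were (21.0% of all regions of the 4 lists). Without depleted IgG 2 the count was 2 of 5 histone regions, as H3f3a joined, beside 24.2% of all regions. Hist1h2ab and Hist2h2aa1 each had a region that both control IgG lists held and no depleted IgG list did, 2 of 3 shared histone regions, beside 22.6% of all shared regions (11.6% of all regions of the 4 lists). Of the 8 mesenchyme markers, 3 (the collagen genes Col1a1, Col1a2 and Col3a1) were likewise in both control IgG lists, and 0 were in a depleted IgG list. In the IP lists, 3 of the 8 were in depleted IP (Col1a2, Vim and Sparc) and 2 in control IP (Col1a1 and Sparc). The supporting cell marker Otog was also in both control IgG lists, with folds of 351 and 212, and in no other list. The hair cell marker Barhl1 and the epithelial marker Epcam were in all 4 IgG lists. The part of any cell type in the H2A result was not tested. Lists made with the IgG antibody thus differed between genotypes in 3 histone genes that were consistent within both replicates. Every IgG site of these 3 genes had a false discovery rate of 100%, and none of them was left below that rate. Hist1h1e stood in all 4 IgG lists. Its IgG folds were 31.1 and 27.4 in depleted organoids, and 8.01 and 7.26 in control organoids. Median folds of all sites in these lists were 55.6 and 44.6 in depleted IgG, and 35.2 and 33.7 in control IgG. The lists as a whole thus also had higher folds in depleted organoids, and the difference for Hist1h1e was not tested.

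Replication-dependent genes held 20 of the 23 sites and the replacement genes 3. Of the 20, 10 were IP sites and 10 IgG sites. Depleted IP held 2 of them, depleted IgG 4, control IP 8 and control IgG 6. The 3 sites of H1f0 and H3f3a were 2 depleted IP sites and 1 depleted IgG site, with 0 in control libraries. A false discovery rate of 100% was given to 12 of the 20 sites and to 1 of the 3, and to 36.9% of all sites. With 7 genes against 2 that share libraries, no difference between the classes was tested.

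All 23 sites lay inside the GRCm38 interval of the gene they were assigned to, and recurring sites kept their place. In 30 pairs of sites of the same gene in different lists, starts differed by at most 8 bp and ends by at most 3 bp, and 11 pairs were identical. The Hist1h1e site began at base 1 or 2 of the annotated gene in all 7 lists and ended at base 520 or 523 of 782. The other 3 replication-dependent linker genes were covered from the middle towards the end. In Hist1h1b the site ran from base 313 to 574 of 794, and in Hist1h1d from base 317 to 608 of 776 in control IP 1. In Hist1h1c it ran from base 389 to 614 of 725 in depleted IP 1. The H4 site began at base 31 and covered 77.6% of its gene. The H2A sites began at base 192 and 200 in Hist1h2ab, and at base 237 in Hist2h2aa1, and covered 47.8% to 53.5% of the gene.

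In the replacement genes the sites took a small part of the annotated interval, which is longer than in the other members. For H3f3a the interval includes introns. The H1f0 site covered bases 727 to 1019 of 2293, or 12.8%. Its width of 293 bp was close to the median of 289 bp of the replication-dependent sites, so the smaller share goes with a longer gene. The H3f3a site, 124 bp wide, covered bases 1684 to 1807 of a gene of 11046 bp, or 1.12%. Its position relative to the exons was not analysed here.

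**Figure D2:**
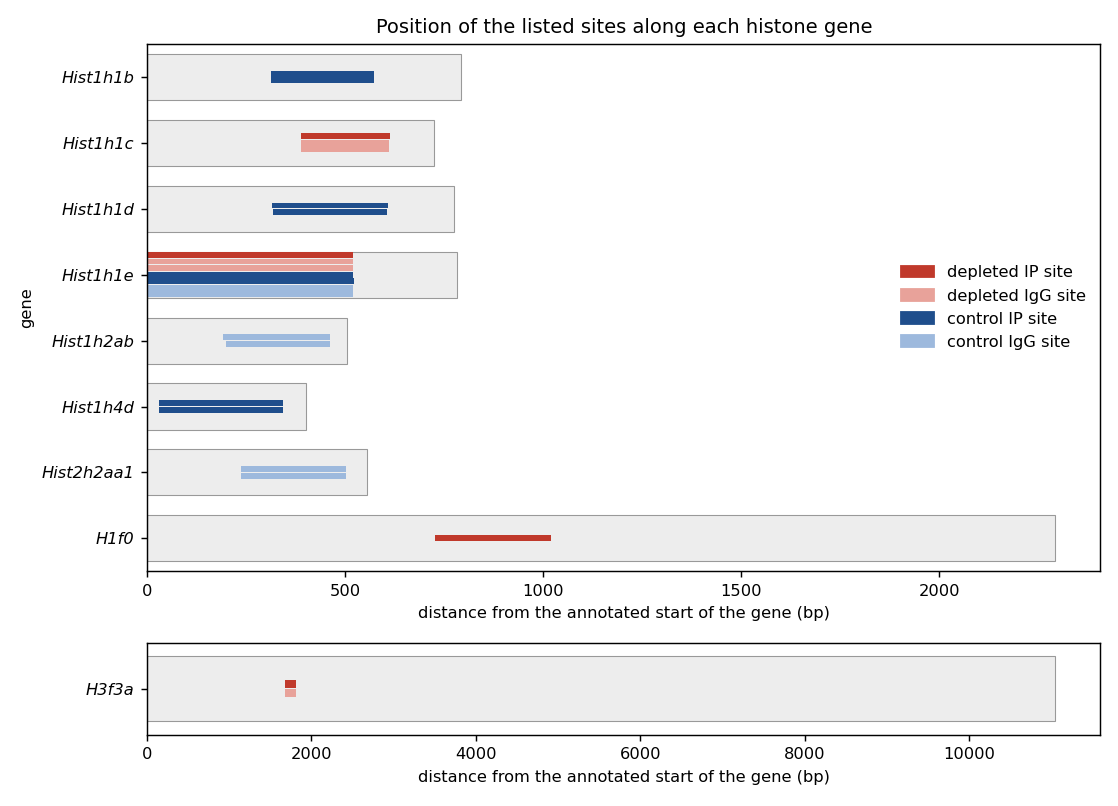
Position of each listed site along its gene, as the distance in bp from the annotated start, with grey bars for the whole gene and coloured bars for single sites by group; H3f3a has an axis of its own. The 7 Hist1h1e sites start at the first or second base, whereas the sites of the other replication-dependent linker genes start at base 313 or later.

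Histone sites were wide and low. Of the 23 sites, 21 were 200 bp or wider, beside 38.0% of all sites, and the exceptions were both sites of H3f3a. The 23 sites are not independent, since they repeat the same places in 9 genes, and Hist1h1e alone gave 7 of them. The median width was 286 bp, against list medians of 115 to 162 bp. Hist1h1e, at 519 to 523 bp, was wider than 94.0% to 99.3% of the sites of each list that held it. By fold, 1 of the 23 sites stood at or above the median of its list, beside 50.7% of all sites, and this was Hist1h1c in depleted IP 1, which ranked above 72.7% of that list. The nearest below were Hist1h1b, above 41.9% and 47.0% of the control IP sites, and H3f3a, above 44.0% of the depleted IP 1 sites. The lowest were Hist2h2aa1 in control IgG 2, at rank 429 of 430, and Hist1h4d in control IP 1.

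**Figure D3:**
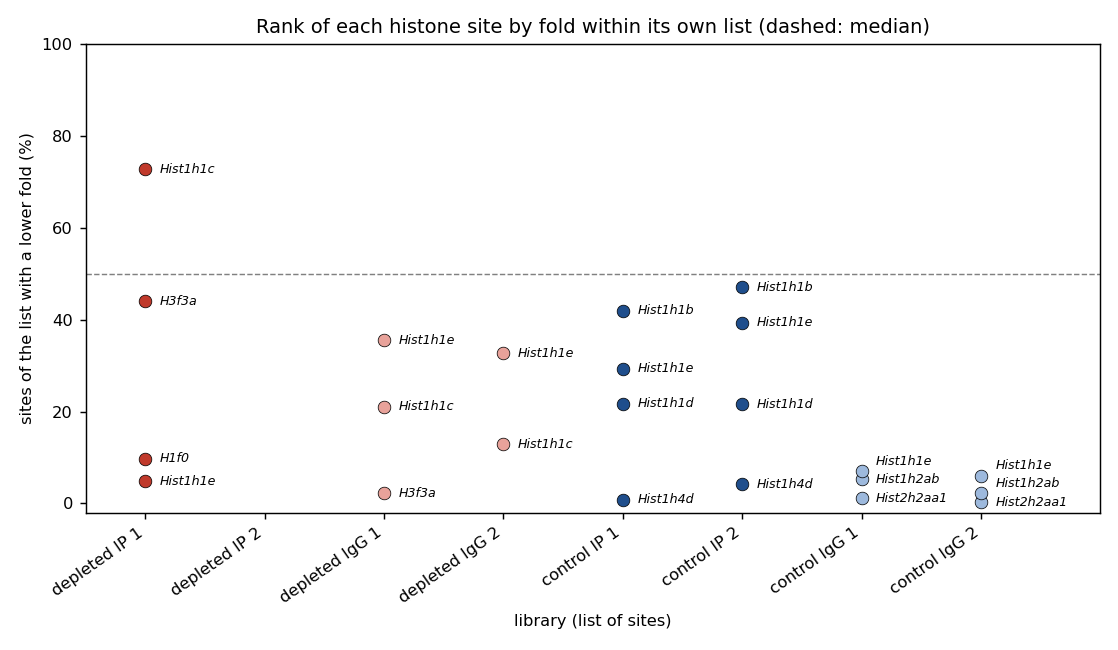
Rank of each histone site within its own list, as the percentage of sites of that list with a lower fold (vertical axis), for the 8 libraries (horizontal axis); the dashed line is the median. A single point, Hist1h1c in depleted IP 1 at 72.7%, lies above the line.

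Wide sites had lower folds in general. The median fold of sites of 200 bp or more was 219 in depleted IP 1, against 424 for narrower sites of that list. It was 191 and 260 in control IP, against 297 and 397 for narrower sites, and 28.1 and 29.2 in control IgG, against 44.0 and 38.1. In depleted IgG it was 52.1 and 40.9, against 62.6 and 53.0. Among sites of 200 bp or more, the histone sites stood below the median in 2 of 3 cases in depleted IP 1, in 2 of 2 in each depleted IgG list, in 4 of 4 and 3 of 4 in the control IP lists, and in 3 of 3 in each control IgG list. The part of width in the low folds was not tested further.

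**Figure D4:**
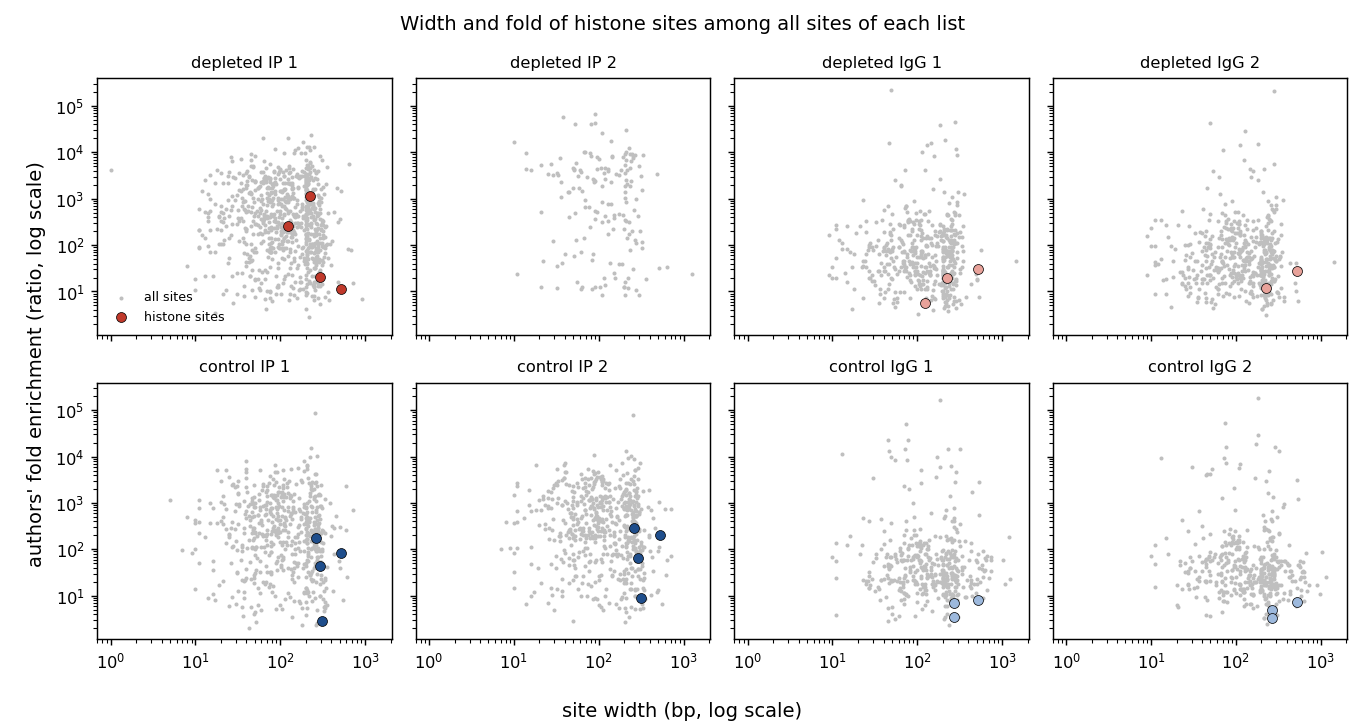
Width in bp (horizontal, log scale) against the authors' fold (vertical, log scale) of every site in each of the 8 lists, with histone sites in colour over all sites in grey. Histone points lie at the right of the grey cloud and mostly in its lower part, as 21 of 23 are 200 bp or wider.

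Other histone genes in the lists were all H2A genes, and all stood in control IgG. Hist2h2ac had folds of 10.6 and 10.7 in control IgG 1 and 2. Hist1h2ap had 4.06 and 4.45, Hist1h2ai had 10.6 in control IgG 1, and Hist1h2ad had 8.69 in control IgG 2. All 6 of these sites had a false discovery rate of 100%. The Hist1h2ap sites lay at chr13:21810620-21810883, outside the GRCm38 interval of that gene and within that of H2ac23, another H2A gene, so this assignment is uncertain too. By family, 6 of 17 H2A genes of the Hist clusters in the GRCm38 gene table had a site, each in control IgG and in no IP library. Of 6 H1 genes of the clusters 4 had a site, of 11 H4 genes 1, of 18 H2B genes 0 and of 12 H3 genes 0. The H1 genes were 2 in depleted IP, 2 in depleted IgG, 3 in control IP and 1 in control IgG.

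Genes that make, process or carry histones were then examined. For reference, 4.35% of the 21900 protein-coding genes in the RefSeq table had a site in any of the 8 lists, 2.78% in depleted IP, 1.74% in depleted IgG, 1.95% in control IP and 1.63% in control IgG. These shares take no account of expression. Of 18 genes for histone mRNA transcription and 3′ end formation, 1 had a site, Cstf2, a cleavage stimulation subunit, with folds of 1043 and 1478 in control IP 1 and 2 and no site in other lists. Slbp, which encodes the stem-loop binding protein, and the U7 snRNP genes Lsm10 and Lsm11 had none. Of 21 histone chaperone genes 6 had a site: 4 in depleted IP, 3 in depleted IgG, 4 in control IP and 3 in control IgG. Nasp encodes a chaperone that binds H1 and H3-H4. Its site at chr4:116604163-116604312 had a fold of 11447 in depleted IP 1, against 278 and 151 in depleted IgG. In control organoids it was listed with IgG alone, at 49.8 and 37.9.

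Supt16, which encodes a subunit of the FACT complex, had sites in both control IP lists, with folds of 447 and 504 in control IP 1 and 571 and 484 in control IP 2, and other sites in depleted IP 1 at 103 and 286. Supt6 had 3 sites in depleted IP 2, with folds of 444 to 7534, and 2 in control IP 1 at 6.25 and 5.83. Dek had a fold of 183 and 848 in control IP, and 13.4 to 33.3 in the IgG libraries. Anp32a was listed in control IP alone (159 and 106). Anp32b was listed in depleted IP 1, at up to 3459, in both depleted IgG lists (55.6 and 50.2) and in control IgG 1 (12.3). Of 16 replication-coupled genes 2 had a site, the helicase subunit genes Mcm4 (341 and 647 in control IP) and Mcm7 (15.6 in depleted IP 2, and 382 and 274 in control IP). Of the 16 replication-coupled genes, 0 were listed in an IgG library.

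Genes with the most similar values were taken among those listed in exactly the same libraries, by the mean absolute log2 difference of the highest fold. For Hist1h1e, over 7 lists and 90 such genes, these were Mmp14, a membrane-bound matrix metalloproteinase gene (0.34), Hdgf, a growth factor gene (0.65), and Cfl1, which encodes the actin-binding protein cofilin (0.72). Mmp14 had a fold of 7.80 in depleted IP 1, 36.96 and 32.9 in depleted IgG, 120 and 176 in control IP, and 9.30 and 9.73 in control IgG. For Hist1h1c, over 3 lists and 74 genes, they were Tsc22d1 (0.32), Knop1 (0.43) and Mink1 (0.45). Over 2 control IP lists and 166 genes, they were Irs3 (0.16), Fat2 (0.30) and Sh3pxd2b (0.30) for Hist1h1b. For Hist1h1d they were Srsf5, an SR splicing factor gene (0.17), the predicted gene Gm21738 (0.23) and Tubb5 (0.23), and for Hist1h4d Gprasp1 (0.45), Snx22 (0.47) and Cryab (0.58).

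For both H2A members, over 2 control IgG lists and 40 genes, the nearest were the H2A genes Hist1h2ap and Hist2h2ac, followed by Hmgb1, which encodes a chromatin protein. The differences were 0.47, 0.86 and 1.07 for Hist1h2ab, and 0.34, 1.66 and 1.88 for Hist2h2aa1. For H3f3a, 7 genes shared its 2 lists, and the nearest were Erp29 (0.27), Sox10 (0.35) and Colec12 (3.24). Likeness over so few lists reflects the lists as much as the genes, and no shared function is read from it.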

How the data were processed

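Reads were trimmed and aligned with tools that the submitters' processing notes name as cutadapt 1.9.3 and HISAT2 2.0.4, with the build mm8. Peak names in the deposited lists begin with MACS, and no source used here gives the version or the background library. The authors deposited a list of sites on mRNAs per library, without pooling. The deposited fold enrichment is a ratio over the peak caller's background. Per the file headers, the score is −10 times log10 of its p, and the deposited false discovery rate is in percent. Coordinates fitted GRCm38 gene intervals and are printed counting from 1. Gene names were matched by gene identifier to a GRCm38.p6 RefSeq table: 9 of 9 histone genes and 98 of 98 genes of the other lists had an entry.

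Sites of the 9 genes were taken from 8 IP and IgG lists and merged into regions at 1 bp of overlap in Python 3.11.15 with pandas 2.3.3, a step tested on simulated data. Alternatives were an overlap of 50% of the shorter site, genes for regions, sites at or above their list's median fold, scores of 100 or more, widths of 100 bp or more, each replicate left out and, chosen after seeing the data, a false discovery rate below 100% and libraries paired by number. The genes, lists and rules for named genes (all 9 genes, other histone genes, list members with a site, and the 3 genes most alike) were chosen with earlier results of these data known. No test was run over the 9 genes.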

Additional observations from a re-analysis of the deposited data

How the results depend on the processing

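No paired analysis was possible because region membership comes from no test in which a replicate block could be fitted; counts within libraries of the same number stand with the depleted IP and IgG values and were added after seeing the data. Of 152 alternative values, 107 stayed within 1.5 times the main count. These include counts of 0 that stayed 0, and equal counts per library entered both as genes and as sites. Requiring 50% overlap, counting genes in place of regions, or keeping sites of 100 bp or more changed no histone count. They could not do so, because the narrowest histone site was 124 bp wide and no gene had more than 1 site in a list. Sites of the same gene also differed by at most 8 bp at either end. A count that kept its value did not always keep its genes. Depth is unknown, and histone sites are weak within their lists, so counts fell where weak sites were removed. When each list kept its sites from its median fold upwards, histone genes and sites numbered 1 in depleted IP 1 (4 before) and 0 in the 6 depleted IgG, control IP and control IgG lists (2 to 4 before). All region counts of 1 to 3 became 0 there, where all regions still gave 32.0% for control IP against control IgG, 18.4% for the reverse, 31.5% for control against depleted IP, 11.5% for control against depleted IgG and 17.0% for depleted against control IgG. Sites of replication-dependent genes then numbered 1 in place of 20, and those of the replacement genes 0 in place of 3.

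With scores of at least 100, histone genes and sites numbered 1 in control IgG 1 and 0 in control IgG 2, and the 2 regions of both control IgG lists became 0 against control IP (15.8% of all regions) and against depleted IgG (10.48%). With a false discovery rate below 100%, they numbered 1 in each depleted IgG list, 2 in control IP 2 and 0 in each control IgG list, and those 2 regions again became 0 (7.41% and 5.21% of all regions). The share of all regions for control IP against control IgG was 82.4% there, with 2 histone regions, Hist1h1b and Hist1h1e. Hist1h1d and Hist1h4d were lost, and Hist1h1e joined because its control IgG sites had a rate of 100%. Hist1h1b and Hist1h1e also made the 2 regions against depleted IP, where all regions gave 33.2%. The count for both depleted IgG lists and neither depleted IP list became 1, for Hist1h1e (15.0% of all regions), and sites of replication-dependent genes numbered 8. For both depleted IgG lists and neither control IgG list the count stayed at 1, but Hist1h1e took the place of Hist1h1c (64.1% of all regions).

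Leaving out each replicate in turn gave 0 to 1 regions for depleted IP against IgG, 0 to 2 for the reverse, 0 to 3 for depleted against control IP and 1 to 2 for depleted against control IgG. The counts set by control IP were 3 to 3 against control IgG and 3 to 4 against depleted IP, and those set by control IgG were 2 to 2.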

Other observations

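The Hist1h1d site of control IP 2 had a score of 3108.85, above the common value of 3100, and yet a false discovery rate of 100%. In that list 2 sites had a score above 3100, and both had a rate of 100%, while 469 sites had a score of exactly 3100. In depleted IP 1 the same was true of 1 of 6 sites above 3100. A filter on this rate therefore removes Hist1h1d from control IP 2 although its score is not low. The score does not mark a strong site either, since 79.4% of the sites of that list scored 3100 or more. By fold this site stood at rank 465 of 593.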
